A study of Drosophila melanogaster with 33 samples.

Results

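RNA editing in the potassium channel genes Shab and slo and in qvr, which encodes a channel regulator, was described at every site that the deposited table lists under these symbols. The genes hold 37 of the 1350 listed sites. Shab has 19 sites on chromosome 3L, slo has 11 on chromosome 3R and qvr has 7 on chromosome 2R. Shab, slo and qvr are entered as CG1066, CG10693 and CG33472. Within the table, sites were taken by gene symbol, while the genes themselves were chosen with earlier results of these data known.

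Adenosine deaminase acting on RNA (ADAR) converts adenosine in double-stranded RNA to inosine, which is read as guanosine. In flies many of its targets are transcripts of neuronal ion channels and synaptic proteins. Shab encodes a voltage-gated potassium channel of the delayed-rectifier class, and slo encodes a large-conductance potassium channel opened by calcium and voltage. The product of qvr, also called sleepless, is a membrane-anchored protein that regulates the Shaker potassium channel and is needed for normal sleep.

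All RNA is from heads of Drosophila melanogaster aged 3 to 4 days and kept in a light:dark cycle. Nascent RNA, which is still bound to chromatin while it is made and was depleted of polyadenylated RNA, came from yellow white (yw) flies in replicate sets 1 and 2, each of 6 libraries taken at ZT2, ZT6, ZT10, ZT14, ZT18 and ZT22, where ZT counts the hours after lights on. These 12 libraries are called the light:dark nascent RNA here, and their sex is not labelled. Polyadenylated mRNA came from yw flies in 2 libraries (ZT2 and ZT14) and from Canton S flies in 12, labelled PE or SE, at each of ZT0, ZT4, ZT8, ZT12, ZT16 and ZT20. Nascent RNA of males came from yw, FM7a and ADAR0 flies, with 2 libraries a strain from 40 to 45 heads each. FM7a is an X-chromosome balancer strain, and ADAR0 flies lack the editing enzyme.

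Editing levels are given in percent and are the share of a pool of reads in which the edited base was read. Each is the authors' value for pooled libraries, and positions are those of genome build dm3 as deposited. The depth of the RNA reads is unknown, so no interval or detection limit can be given, and where 0 is given the table lists 0, which need not be absence of editing. The replicate sets of light:dark nascent RNA gave the only replicate error, and they also differed in preparation because ribosomal RNA was removed from set 1. Labels do not say whether libraries of a group came from separate fly cultures. From these sets the SD of a level was 2.87 points at the Shab sites, 2.40 points at the slo sites and 4.80 points at the qvr sites, against 4.61 points over all listed sites. Sets more than 10 points apart were found at 3 of the 37 sites, against 11% of all sites. No test between conditions was possible from pooled levels, so the comparisons below are values and counts. The table holds no expression values, so the tissue could not be checked against marker genes. Genomic DNA of yw flies, labelled as head although the protocol describes whole flies, covered the 37 sites with 18 to 88 reads.

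Exonic sites made up 26 of the 37, or 70.3%, against 46% of the whole table. The share differed among the genes, with 11 of 19 in Shab, 8 of 11 in slo and 7 of 7 in qvr. The qvr sites lie within 2717 bases, whereas the slo sites spread over 39075 bases and the Shab sites over 45421 bases. A nascent level of 50% or more was listed at 15 of the 37 sites, against 14.9% of all sites. These were 7 sites of Shab, 4 of slo and 4 of qvr.

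The order of the genes by nascent level depended on the sites compared. Over all their sites the median nascent level was 51% in qvr, 31% in Shab and 15% in slo. These medians were 54%, 33% and 15% in set 1 and 50%, 29% and 15% in set 2, so the order held in both sets. Over exonic sites alone Shab was highest with a median of 61%, followed by qvr with 51% and slo with 17.5%. The corresponding median of all listed exonic sites was 27%. At the sites with an mRNA level slo was highest with a median nascent level of 80.5% over 4 sites. Shab followed with 77% and qvr with 51%, over 7 sites each, against 48% in the whole table. The median of slo stands for levels of 2 kinds, since its sites were either at 20% or less or at 63% or more, with none between. Intronic sites of Shab had a median of 25% and ranged from 7% to 40%.

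**Figure D1:**
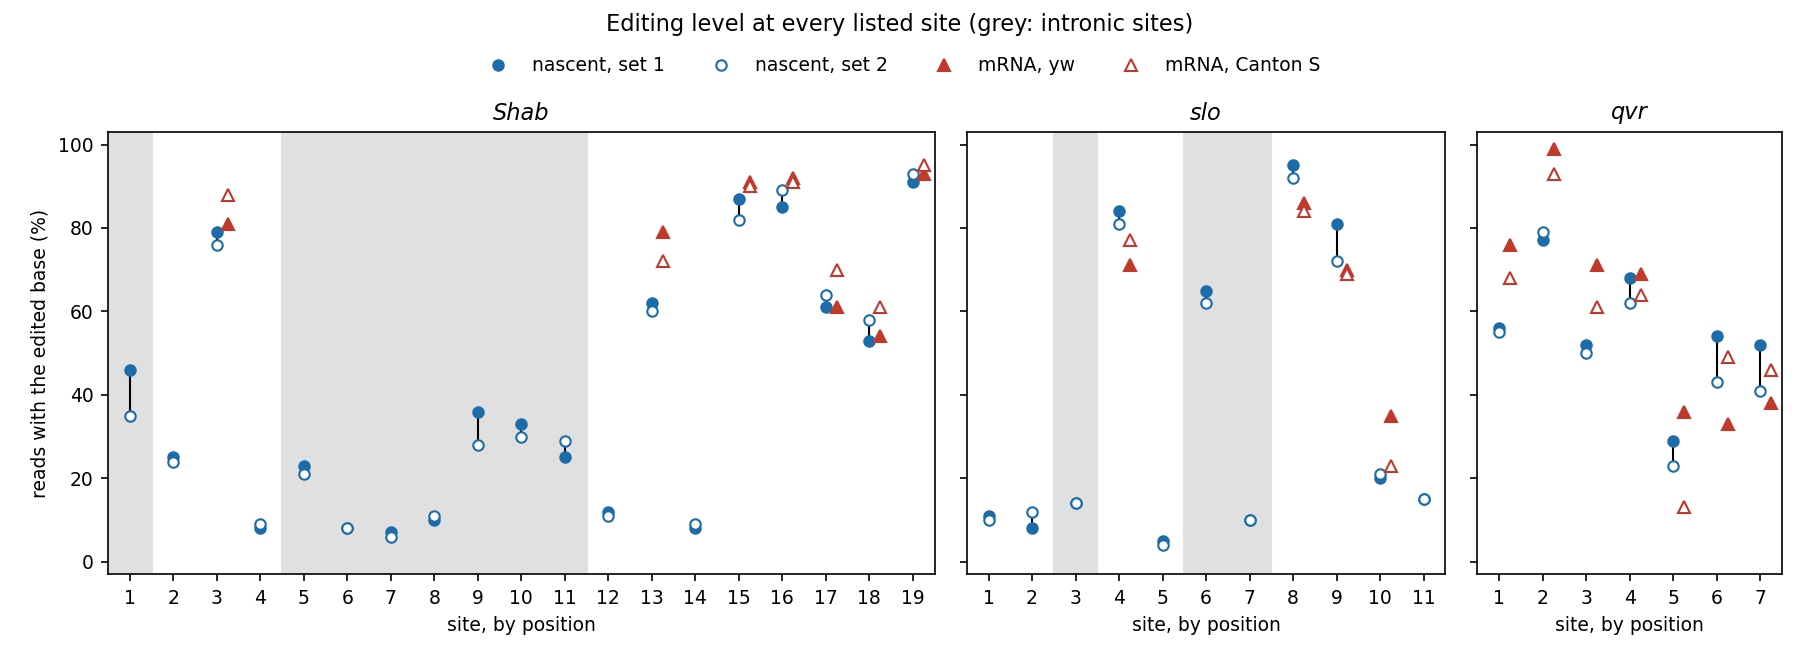
Editing level in percent (y axis) at each site of Shab, slo and qvr, numbered in order of position (x axis). Circles are nascent replicate sets 1 and 2 of 6 pooled libraries each, joined by a line, triangles are the pooled yw and Canton S mRNA levels where listed, and grey bands mark intronic sites. The nascent sets run from 4% to 95%, and at the sites with an mRNA level the nascent sets lie at 20% or more.

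Shab carried its highest levels in a run of exonic sites at the upper end of its listed positions. Beyond its last intronic site lie 8 exonic sites within 507 bases (2940919 to 2941426). The highest, at position 2941426, stood at 91% and 93% in nascent sets 1 and 2, 93% in yw and 95% in Canton S mRNA. In male nascent RNA the same site was at 76% for yw, 77% for FM7a and 3% for ADAR0. Among all 1350 sites only 5 had a higher nascent level. Nascent and mRNA levels of this site thus lay close together, and both male strains with ADAR lay below them.

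Levels in this run changed sharply between adjacent bases. At position 2941311 the level was 8% and 9% in nascent sets 1 and 2, and at the adjacent base 2941312 it was 87% and 82%. A second adjacent pair, 2941425 and 2941426, had pooled nascent levels of 55% and 92%. These differences of 75 and 37 points exceed the SD between sets at all 4 sites, which was 0.71 to 3.54 points. In the whole table, 78 pairs of listed sites of a gene are adjacent, with a median difference of 19 points. The 75 points at Shab were the largest of them, a feature singled out after its values were seen. The remaining adjacent pair of the 3 genes, in qvr at 7337822 and 7337823, was at 48% and 47%.

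Pairs within 100 bases were also compared. Shab had 13 such pairs with a median difference of 24 points, qvr had 7 with a median of 13 points, and slo had none. Over all listed sites the median was 13 points in 708 pairs. In the intronic pairs of Shab the levels were low and nearer to each other, at 22% and 8% (2926925 and 2926947) and at 7% and 11% (2927340 and 2927350).

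At the other strongly edited exonic sites of Shab the sets differed by 2 to 5 points. Position 2941364 was at 85% and 89% in nascent sets 1 and 2, and position 2925255 at 79% and 76%. Position 2941396 had 61% and 64%, position 2941131 had 62% and 60%, and position 2941425 had 53% and 58%. The exonic sites without an mRNA level were much lower, with pooled nascent levels of 24% (2924829), 11% (2940919), 9% (2941311) and 8% (2925380). The intronic site 2896005 was at 46% and 35%, which was the widest gap between sets in Shab.

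The slo gene had strong editing at 4 separate sites. The exonic site at 20532273 was at 95% and 92% in nascent sets 1 and 2, and 2 sites of the whole table had a higher pooled level than its 94%. The exonic sites at 20501385 and 20533145 were at 84% and 81% and at 81% and 72%. The intronic site at 20518299 was at 65% and 62%, which was the highest intronic level of the 3 genes. The other exonic sites lay at 20% (20533418), 15% (20533612), 11% (20494537), 10% (20500235) and 5% (20517215), and the other intronic sites at 14% (20501197) and 10% (20523515).

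Editing of qvr formed 3 groups of exonic sites. The first group comprises 4 sites within 22 bases (7335106 to 7335128), with pooled nascent levels of 56%, 78%, 51% and 65%. The next site, at 7335492, was lower with 29% and 23% in sets 1 and 2. The adjacent pair at 7337822 and 7337823 was at 54% and 43% and at 52% and 41%. The sets were therefore 11 points apart at both sites of the pair, whereas in the first group they differed by 1 to 6 points.

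Whether mRNA carried more or less editing than nascent RNA could be asked at 18 exonic sites, 7 of Shab, 4 of slo and 7 of qvr. All nascent RNA compared here is from yw flies, so the Canton S pool differs from it in strain as well. An mRNA level is thus listed for 48.6% of the sites of these genes, against 19% of all sites. Such levels are listed at exonic sites only, at 18 of 26 in these genes against 257 of 621 in the whole table. All 18 sites had a nascent level of 20% or more. Across the 18 sites the nascent level and the mean of both mRNA pools were correlated with 0.916 by Pearson's r and 0.878 by Spearman's rho. Over all 257 sites with an mRNA level the values were 0.908 and 0.905. The sites share the same libraries, so this is a description. Each mRNA pool exceeded each nascent set at 8 of the 18 sites, against 39.3% of all sites with an mRNA level. Each pool was below each set at 3 of 18, against 8.95%, and all 3 were sites of slo.

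The mean level in mRNA exceeded the nascent level at 7 of 7 sites of Shab, against 72.4% of all sites with an mRNA level, with a median difference of 4.5 points and a range of 2 to 14.5 points. Over all sites with an mRNA level the median was 5 points. Canton S mRNA was higher at 7 sites, against 61.9% of all such sites, and yw mRNA at 5, against 68.9%. Within the yw strain the count was thus 5 of 7, near the share in the whole table. The count of 7 of 7 held only for Canton S mRNA and for the mean of the pools. The largest difference was at 2941131, with 62% and 60% in the nascent sets, 79% in yw and 72% in Canton S mRNA. Next came 2925255, with 79% and 76% in the sets, 81% in yw and 88% in Canton S mRNA. Both pools also lay above both sets at 2941312 (91% and 90% in yw and Canton S mRNA) and 2941364 (92% and 91%). At 2941396, 2941425 and 2941426 Canton S mRNA lay above both sets, with 70%, 61% and 95%, and yw mRNA at 61%, 54% and 93% lay within their range. The median was 2.5 points against nascent set 2 alone and 4.5 points against set 1. At a site, the SD of a difference between a single nascent set and a single mRNA pool was 4.83 points. It combines SDs of 2.56 points between the nascent sets and 4.09 points between the yw and Canton S pools. The latter includes any strain difference, so the combined SD is not replicate error alone. Both medians are below this SD, but it is not the error of a median over sites or of the mean of both pools.

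At slo the 3 strongly edited exonic sites were lower in mRNA. Position 20501385 had 84% and 81% in nascent sets 1 and 2, but 71% in yw and 77% in Canton S mRNA. Position 20532273 had 95% and 92% in the sets, 86% in yw and 84% in Canton S mRNA. At 20533145 the sets had 81% and 72%, and the pools had 70% for yw and 69% for Canton S. In each of the 3 sites every mRNA pool was below every nascent set. The fourth site, 20533418, went the other way, with 20% and 21% in the sets, 35% in yw and 23% in Canton S mRNA. The median difference of the 4 sites was -8.75 points, and it was -4.75 points against set 2 alone and -10 points against set 1 alone. The SD of a difference between a single nascent set and a single mRNA pool at a site was 5.97 points. It combines SDs of 3.54 points between the nascent sets and 4.81 points between the mRNA pools, which differ in strain. The median against set 2 does not reach the combined SD in size, but that SD is not the error of these medians.

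In qvr the direction differed along the gene. At the first 3 sites both mRNA pools were above both nascent sets, by 16, 18 and 15 points for the mean of the pools. Position 7335106 was at 56% and 55% in the sets, 76% in yw and 68% in Canton S mRNA. Position 7335112 was at 77% and 79% in the sets, 99% in yw and 93% in Canton S mRNA, and 7335122 was at 52% and 50% in the sets against 71% and 61% in the pools. At 7335128, only 6 bases further, the pools had 69% and 64% beside sets at 68% and 62%. The adjacent pair had lower yw mRNA levels, with 33% at 7337822 and 38% at 7337823, below both sets, while Canton S mRNA at 49% and 46% lay between the sets. The SD of a difference between a single nascent set and a single mRNA pool at a site was 9.99 points. It combines SDs of 4.80 points between the nascent sets and 8.76 points between the mRNA pools, which differ in strain. The median difference of the 7 sites was 1.5 points, smaller than the combined SD, which is not the error of that median. The median became -1.5 points against nascent set 1 alone, and it was 10 points for yw mRNA alone and 1 point for Canton S mRNA alone. No direction can therefore be given for qvr as a whole.

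**Figure D2:**
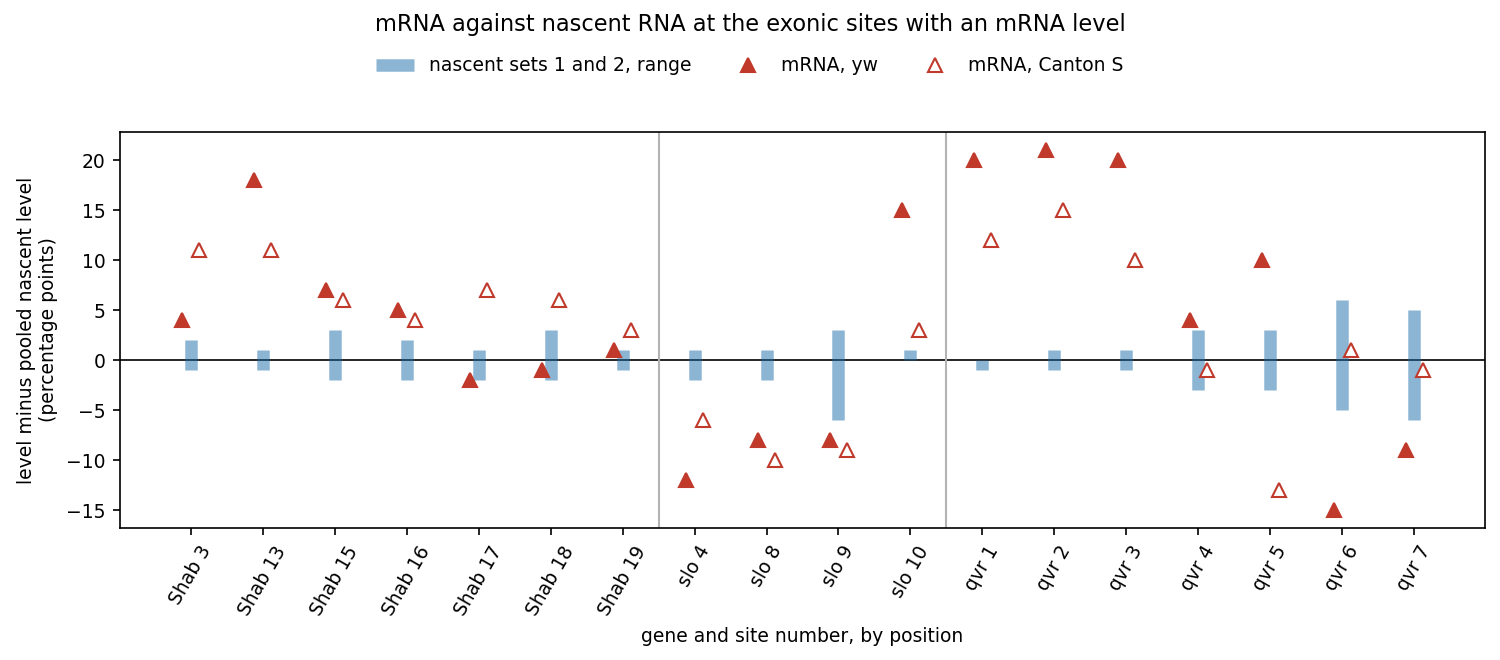
Level minus the pooled light:dark nascent level, in percentage points (y axis), at the 18 exonic sites with an mRNA level (x axis, gene and site number by position). Bars span nascent replicate sets 1 and 2, filled triangles are the yw mRNA pool and open triangles the Canton S mRNA pool. Both triangles lie above the bar at 4 sites of Shab, 1 of slo and 3 of qvr, and below it at 3 sites of slo.

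The mRNA strains parted, with a pool above and a pool below both sets, at 1 of the 18 sites, against 16.3% of all sites with an mRNA level. This was qvr at 7335492, with 36% in yw and 13% in Canton S mRNA around nascent sets at 29% and 23%. The pools differ in strain, number of libraries and sampling times. Canton S libraries are also labelled PE or SE, and CASAVA is not named for them. These factors cannot be told apart.

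The ADAR0 males address which listed levels are found without the enzyme. At 36 of the 37 sites the ADAR0 level was 2% or less, against 94.1% of all sites with an ADAR0 level, and 31 sites were listed at 0, against 88.1%. The exception was Shab at 2941426 with 3%, the site with the highest level of that gene in the light:dark nascent RNA. All 11 sites of slo were at 0 in ADAR0 males, including 20532273, which was at 88% in yw males and 93% in FM7a males. The remaining levels above 0 were 2% at 2925255 and 1% at 2925380 and 2941364 in Shab, and 2% at 7335112 and 1% at 7335492 in qvr. The ADAR0 level was below the FM7a level at 34 sites, against 79.6% of all sites, equal at 2 and above it at 1, where the levels were 1% and 0% (2925380). Low ADAR0 levels at the sites of these genes are thus shared with the table as a whole.

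Control males had lower levels than the light:dark nascent RNA at many sites. The preparations also differ, since male RNA came from few heads and was handled with CASAVA 1.8 in place of 1.6. These factors and sex cannot be told apart. Every listed site is at 4% or more in the light:dark nascent RNA, whereas 163 sites are at 0 in yw males and 253 in FM7a males. How far the listing of sites by their light:dark level lowers the male levels beside it was not tested. The yw male level was below both nascent sets at 27 of the 37 sites, or 73%, against 62.6% of all sites. Levels of yw and FM7a males were both below both sets at 18 of 37, or 48.6%, against 52%. By gene these were 11 of 19 sites in Shab, 3 of 11 in slo and 4 of 7 in qvr.

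At qvr the pooled nascent level exceeded that of yw males at 7 of 7 sites, against 70.4% of all sites, by a median of 19 points. FM7a males were below it at 5 of 7, against 82.1%, and above it at 2. Position 7335106 was at 37% in yw males and 32% in FM7a males, against 56% in the pooled nascent libraries. Position 7335112 was at 61% and 33% against 78%, and 7335128 was at 39% and 28% against 65%. At 7335122 yw males were listed at 0 and FM7a males at 15%, against 51%. The strains with ADAR parted at the adjacent pair, where FM7a males had 50% and 58% and yw males 26% and 35%.

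At the 4 slo sites with an mRNA level, the median difference from the pooled nascent level was -0.5 points in yw males and 0 points in FM7a males. Such sites had medians of -16 and -19 points in Shab, and of -10 and -11 points in the whole table. Position 20501385 was at 79% in yw males and 84% in FM7a males, and 20533145 was at 81% and 66%. Position 20533418 was higher in males, with 28% and 32% against 20%, and so was 20533612 with 23% and 19% against 15%. The median difference between yw males and the pooled nascent level was -3 points over the 11 sites, against -5 points over all listed sites. The intronic site 20518299 differed most between the strains, with 38% for yw, 100% for FM7a and 0% for ADAR0.

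In Shab the distance between male and nascent levels varied within the run of exonic sites. The first strongly edited site of the run, 2941131, was at 59% in yw males and 58% in FM7a males, beside 61% in the pooled nascent libraries. At 2941312 the levels were 74% and 65% against 84%, and at 2941364 they were 55% and 54% against 87%. Position 2941396 had 38% and 31% against 63%. At 2941425 only 9% and 11% were listed against 55%, while the adjacent base 2941426 kept 76% and 77% against 92%. The differences were therefore uneven, and both strains gave nearly the same level at 2941364, 2941425 and 2941426. Outside the run, 2925255 was at 78% and 71%, beside 77%. Whether the male levels in the run differ from the nascent levels beyond library error was not tested, since each strain has 1 pooled level.

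**Figure D3:**
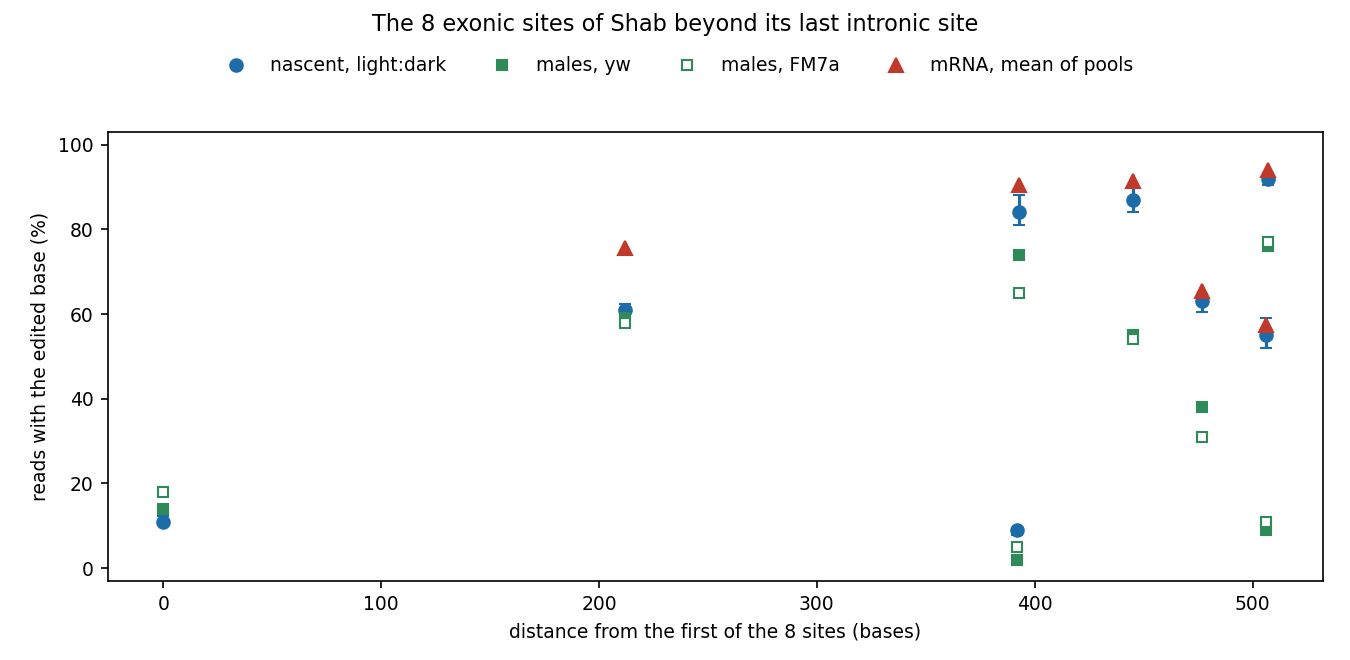
Editing level in percent (y axis) against distance in bases from the first of the 8 exonic Shab sites beyond the last intronic site (x axis). Circles are the pooled light:dark nascent level, with bars of 1 SD about the mean of the 2 replicate sets, squares are the yw and FM7a male pools, and triangles are the mean of the mRNA pools at the 6 sites that have them. Male levels are close to the nascent level at 212 bases and lie 44 to 46 points below it at 506 bases.

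The yw and FM7a males differed in no common direction. The yw level was higher at 19 of the 37 sites, against 57.9% of all sites, lower at 16 and equal at 2. Median differences were 1 point in Shab, -1 point in slo and 5 points in qvr. Each is smaller in size than the SD of a difference computed from the nascent sets (4.05, 3.40 and 6.79 points). That SD is for a site in light:dark pools of 6 libraries, so it does not measure the error of male pools of 2 libraries. FM7a males were listed at 0 at 3 of the 36 sites where yw males were above 0, against 14.6% of all such sites. These were the intronic Shab site 2896005 at 32% in yw males, the exonic Shab site 2925380 at 29% and the intronic slo site 20523515 at 9%. Sites seen in all 4 control male libraries numbered 28 of the 37, or 75.7%, against 45.1% of the table, and they were 14 of Shab, 8 of slo and 6 of qvr.

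**Figure D4:**
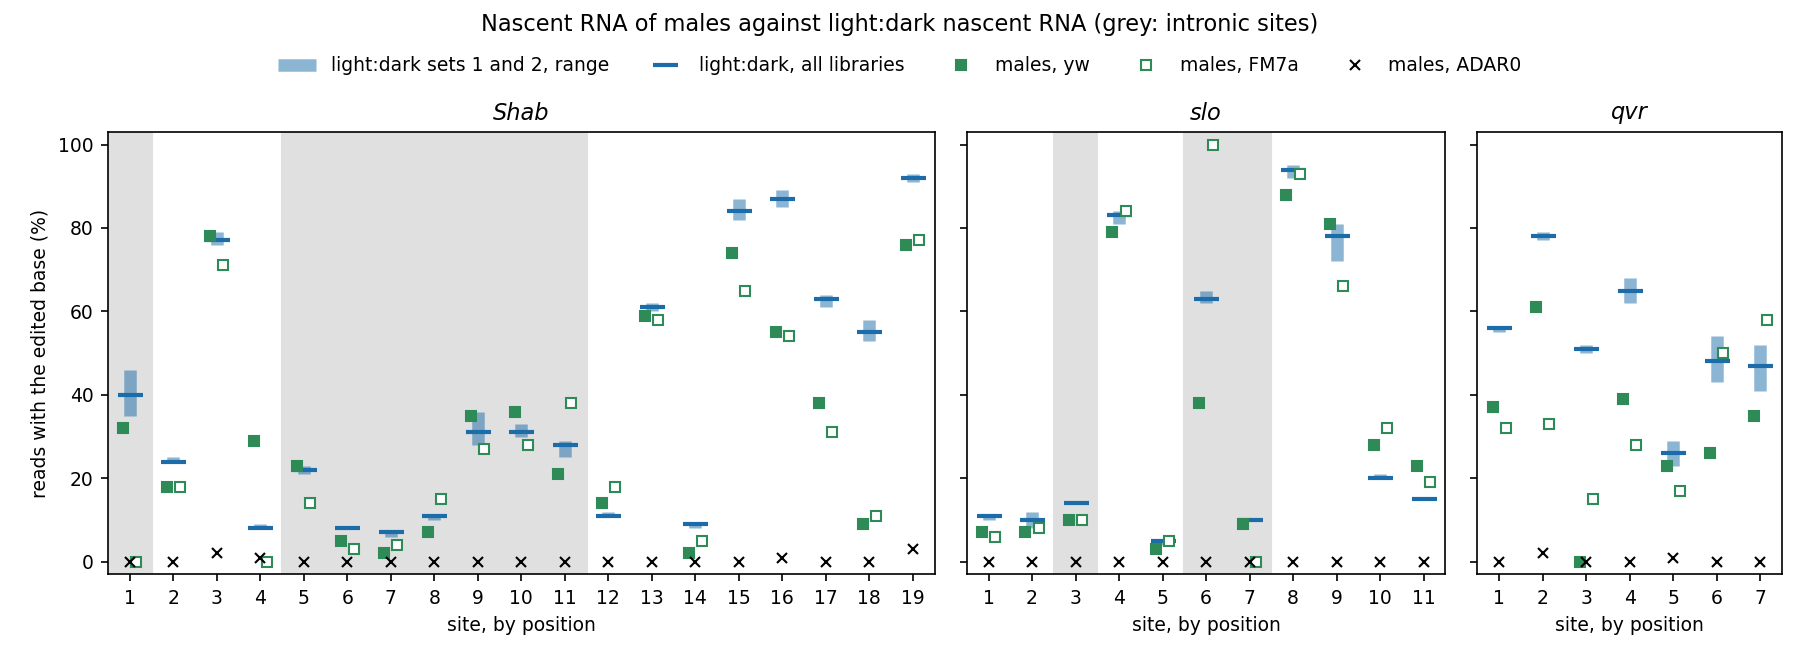
Editing level in percent (y axis) of the nascent RNA of yw, FM7a and ADAR0 males at each site of Shab, slo and qvr (x axis, by position), beside the light:dark nascent RNA. Bars span replicate sets 1 and 2, dashes are the level of all 12 libraries, squares are the control male pools and crosses are ADAR0 males, and grey bands mark intronic sites. ADAR0 levels lie between 0% and 3%, and the intronic slo site 6 is at 38% in yw males and 100% in FM7a males.

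Other potassium channel genes were surveyed by a list of 21 genes that encode channels or channel partners. Of these, 6 had a listed site and 15 had none, which says only that the table lists no site there. The voltage-gated channel gene Sh, whose product qvr regulates, had 58 sites with a median nascent level of 15.5% and a range of 6% to 80%. The gene eag, which encodes another voltage-gated channel, had 12 sites with a median of 45% and a range of 9% to 79%. The calcium-gated channel gene SK had 2 sites at 20% to 32%, and the potassium channel gene SLO2 had 4 at 20% to 29%. Ih, which encodes a hyperpolarization-gated channel, had 2 sites at 10% and 16%, and dysc had 1 intronic site at 27%. That dysc site was at 95% in FM7a males and at 100% in ADAR0 males, where no site of Shab, slo or qvr was above 3%. mRNA was higher than nascent RNA at 2 of 2 sites of eag and 1 of 1 of SK, and at 0 of 4 of Sh, where it was lower at 3. The share over all sites with an mRNA level was 72.4%. Over the 79 sites of the list the median nascent level was 18%, against 31% for the 37 sites of Shab, slo and qvr and 21% for all listed sites. The mix of regions differs, since 58 of the 79 sites are of Sh and 52 of those are intronic. Of the 37 sites, 26 are exonic. Median nascent levels of the whole table were 18% at intronic and 27% at exonic sites. The compared medians were not matched for region.

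Likeness to other genes was measured by the median of 7 levels, namely both nascent sets, both mRNA pools and the 3 male pools, over the sites that carry all of them. The measure is the Euclidean distance between medians in percentage points, and 30 genes had 3 or more such sites. Nearest to Shab was the nicotinic receptor gene nAcRalpha-34E at 17.6 points, followed by the calcium channel genes Ca-alpha1D at 21.7 and Ca-alpha1T at 23.1. The slo gene was nearest to Ca-alpha1T at 20.3 points, then to Shab at 32.8 and to the nicotinic receptor gene nAcRalpha-30D at 32.9. Nearest to qvr were CG18437 at 10.025 points, the sodium-calcium exchanger gene Calx at 12.0 and tutl, an immunoglobulin-family gene, at 12.5. Shab and qvr were 58.5 points apart and slo and qvr 74.4 points. With 2 such sites as the minimum, the channel gene eag was nearest to Shab at 10.9 points and second to slo at 24.5 points, while the order for qvr was as given. The measure holds only the more strongly edited exonic sites, 7 of Shab, 4 of slo and 7 of qvr.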

How the data were processed

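The deposited table gives, per site, the gene symbol, region, position and editing levels. Per the file headers, libraries were pooled before each level was taken. The authors gave levels as fractions rounded to hundredths, which were multiplied by 100. Genomic coverage is a deposited read count, and a column marks sites detected in each of the 4 control male libraries (yw, FM7a). Per the submitters' processing notes, TopHat and dm3 were used throughout, with CASAVA 1.6, or 1.8 for males, named for all but Canton S. Site calling, and whether positions count from 0 or 1, are not stated in those sources.

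All rows with symbols Shab, slo and qvr were taken, with no filter. The mRNA level is the unweighted mean of both pools. SDs come from paired pools, and those for mRNA minus nascent levels include the difference between the yw and Canton S pools. Counts and medians were set beside those of all listed sites, and no test was made. Functions were checked on made-up levels. List genes were matched by symbol or synonym in the RefSeq gene table of Release 6, and SLO2 and dysc are listed under older CG numbers. By a fixed rule all 37 sites were described, with the listed channel genes that have a site and the 3 nearest genes of each member. The members, lists and rules were chosen with earlier results of these data known. Python 3.11.15 and pandas 2.3.3 were used. Alternatives varied the nascent set, the mRNA pool, sites by level, region, genomic coverage (30 reads) and detection in males, the ADAR0 threshold, the neighbour distance and the number of sites for likeness.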

Additional observations from a re-analysis of the deposited data

Results flagged for a closer look

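Strains with ADAR lay on opposite sides of both light:dark nascent sets at 6 of the 37 sites in male nascent RNA, or 16.2%, against 17.4% of all listed sites. None of these differences was tested. The yw level minus the FM7a level was -62 points at the intronic slo site 20518299, where FM7a males were at 100% and the nascent sets at 65% and 62%. It was 29 points at the exonic Shab site 2925380, where FM7a males were listed at 0, and -23 points at qvr 7337823. In introns of Shab it was -17 points at 2940259, -8 points at 2927350 and 8 points at 2939953.

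In mRNA the same placement occurred once, at qvr 7335492, where yw exceeded Canton S by 23 points. This difference was not tested either.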

How the results depend on the processing

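No paired analysis was possible because replicates are pooled in every male and mRNA level. Leaving out replicates was possible only for the nascent sets. Of 81 alternative values, 71 did not reverse their sign and either moved by less than the spread between pools or, for counts, stayed within 1.5 times. Among them, the median difference of mRNA from nascent RNA in qvr became 0 points for sites seen in all control males. The median nascent level of Shab, 31%, became 40% for sites at 10% or more, 43% for sites seen in all control males, 61% for exonic sites and 16.5% without sites that have an mRNA level. That of slo, 15%, became 17.5%, 41.5%, 17.5% and 11% under the same settings. The median difference of mRNA from nascent RNA in qvr, 1.5 points, was -1.5 points without replicate set 2 and 4.5 points without set 1, 10 points with yw mRNA alone and 1 point with Canton S mRNA alone. For Shab the yw male level minus the nascent level, -5 points, was -16 points at sites with an mRNA level. With 2 sites as the minimum for likeness, 6 of the 9 nearest genes were shared, and eag was nearest to Shab. The settings without sites that have an mRNA level, only such sites, FM7a in place of yw males and without sites at 100% in FM7a were chosen after seeing the data. RNA depth is unknown, which limits every level.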

Other observations

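The deposited table also gives, for the 12 nascent libraries, the 5th percentile of single-library levels, a value close to the lowest single library. At exonic sites with a pooled level of 50% or more it lay 3 to 13 points below that level. The ends of this range were Shab 2925255, with 74% beside 77%, and slo 20533145, with 65% beside 78%. In the median the pooled level exceeded the 5th percentile by 7 points in Shab, 7 points in slo and 11 points in qvr, against 11 points over all listed sites. The widest gaps of these genes were in introns, with 7% beside 40% at Shab 2896005 and 42% beside 63% at slo 20518299. The depth behind the single libraries is unknown.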
